A study of Mus musculus with 20 samples.

Results

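Lung RNA from unexposed dams was compared with a mouse universal reference RNA on the 5 arrays of the control group, out of 20 arrays in the series. Members were taken by title: the arrays named Control 4, 7, 14, 15 and 18, here called dams 4, 7, 14, 15 and 18. Each array carried 1 dam's lung RNA in the red dye Cy5 and the Stratagene universal mouse reference RNA in the green dye Cy3, so that a log2 ratio above 0 means more signal from lung. The animals were adult time-mated females of the strain C57BL/6BomTac. Control dams received the vehicle, Milli Q water, by intratracheal instillation on 4 days of gestation (days 7, 10, 15 and 18), and lungs were taken 26 to 27 days after exposure, after weaning of the litters. Pregnancy, instillation and lactation were therefore shared by every group, and no lung without instillation was among the samples used here. The other 15 arrays held dams given the carbon black Printex 90 at 2.75, 13.5 or 67 µg per instillation (11, 54 or 268 µg in total, 5 dams each). No array had the dyes swapped, so dye and RNA source cannot be told apart. The control dams were on 5 different slides, so slide and dam cannot be told apart either. In whole lung, more cells of a type and more of an RNA per cell cannot be told apart.

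As background, the gas-exchange surface of the lung is lined by flat alveolar type 1 cells and by type 2 cells that secrete surfactant, a lipid and protein film that keeps the air spaces open. Conducting airways carry club cells, which secrete protective proteins and oxidise inhaled chemicals, and ciliated cells, which move mucus. A dense bed of capillary endothelium, fibroblasts, pericytes and resident macrophages makes up most of the rest. Universal reference RNA of this make is a pool of RNA from cultured mouse cell lines, so a ratio sets a whole tissue against cultured cells and is no measure of absolute abundance.

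Of 19940 genes tested, 2617 (13.1%) were higher in control lung than in the reference and 1504 (7.54%) were lower, by limma's test against a 2-fold difference at a Benjamini-Hochberg adjusted p of 0.05. A gene was tested when its probe stood well above background in either dye on at least 3 of the 5 control arrays. With each array centred on its median in place of the loess curve the counts were 4113 and 826, a split of 83.3% higher among called genes against 63.5%, and the median gene moved from 0.0566 to 0.334. The mean ratio was at least 8-fold higher for 499 genes and at least 8-fold lower for 104, and 376 and 58 genes passed 8-fold in every one of the 5 dams. Log2 ratios of pairs of control arrays correlated at 0.968 to 0.987 across genes, and the median gene had an SD of 0.105 over the 5 dams. Every array set lung against the same reference RNA, and the correlations include that shared contrast. Between 68.9% and 78.3% of probes were well above background in Cy5 and 64.2% to 77.3% in Cy3. Spike-in RNAs of known ratio gave slopes of 0.781 to 0.885 on the log10 scale, so the spike-in ratios were measured smaller than they were made. Values below are mean log2 ratios ± SD over the 5 control dams unless stated, and adjusted p-values are from the same limma test.

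**Figure D1:**
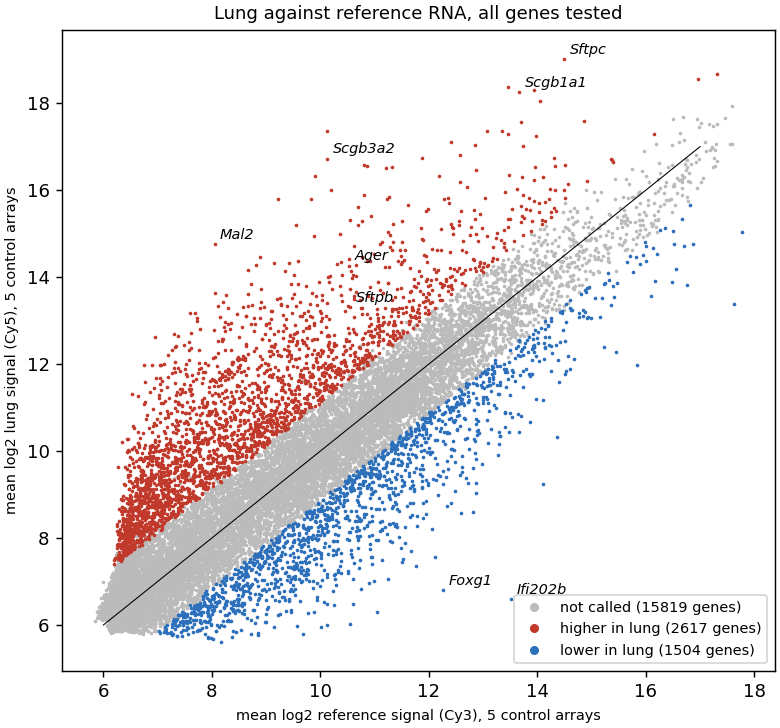
Mean log2 lung signal (Cy5, vertical axis) against mean log2 reference signal (Cy3, horizontal axis) over the 5 control arrays, 1 point per gene, with the line of equal signal. The 2617 genes called higher lie above the line and the 1504 called lower lie below it, and the upper cloud is the wider one.

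The lung markers were high on every control array. For Sftpc, which encodes surfactant protein C of type 2 cells, the log2 ratios were 4.22, 4.30, 5.31, 4.70 and 4.03 in dams 4, 7, 14, 15 and 18. The mean was 4.51 ± 0.51 (adjusted p = 1.3e-06), and dam 14 was the highest. Scgb1a1, the main secretory protein of club cells, read 4.30, 4.16, 5.39, 4.66 and 4.40 in the same order of dams. Its mean was 4.58 ± 0.49 (adjusted p = 9.46e-07). Ager, a receptor abundant on type 1 cells, read 3.65, 3.05, 4.45, 3.91 and 3.59 and averaged 3.73 ± 0.51 (adjusted p = 5.15e-06). Sftpb, which encodes surfactant protein B, read 2.66, 2.62, 3.1, 2.82 and 2.58 and averaged 2.75 ± 0.21 (adjusted p = 7.04e-07). Dam 14 was the highest for all 4 of these markers, and the lowest dam was 18 for Sftpc and Sftpb and 7 for Scgb1a1 and Ager. Over all 20 arrays, the genes whose ratio followed that of Sftpc most closely were Sftpa1 (Pearson r = 0.983), Lyz2 (r = 0.966), Lyz1, Cyp2f2 and Inmt. These correlations describe arrays that share the same reference RNA and carry no test. Over the control dams Cy3 ranged 2.73-fold for Sftpc and 3.57-fold for Lyz2, and Cy5 1.19-fold for each. The correlations are therefore no measure of lung RNA alone.

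Among the genes of type 2 cells and surfactant, 18 of 20 measured were higher in lung, none was lower, and the median ratio was 3.57 against 0.0566 for all genes tested. Hc, complement component 5, stood at 5.80 ± 0.55, and Sftpd, the collectin surfactant protein D, at 5.70 ± 0.62. The chitinase Chia1 stood at 4.93 ± 0.43 and the lysozyme Lyz2, also abundant in macrophages, at 4.90 ± 0.68. Lyz1 and Lyz2 are near-identical copies, and their probes may share RNA. The members that missed the test were Etv5, a transcription factor of type 2 cells, at 1.04 ± 0.11 and the fatty acid binding protein Fabp5 at 0.13 ± 0.098. Of 15 genes of type 1 cells, 13 were higher and none lower, with a median of 3.44. They were led by Clic5 at 5.57 ± 0.43, Sec14l3 at 5.29 ± 0.71 and the anchoring protein Akap5 at 5.13 ± 0.28. Pdpn, which encodes podoplanin on the surface of type 1 cells and is also made by other cell types, stood at 0.43 ± 0.13 and was not called. The tight junction gene Cldn18 averaged 3.84 ± 0.32 and the water channel gene Aqp5 3.78 ± 0.30.

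Where the lung signal was brightest, the dams differed more in the reference channel than in the lung channel. The Cy5 signal of Sftpc before background correction was 630146, 581776, 530963, 583193 and 611764 in dams 4, 7, 14, 15 and 18, a range of 1.19-fold, and its Cy3 signal was 24637, 23866, 10885, 17755 and 29669, a range of 2.73-fold. Dam 14 had the highest Sftpc ratio and the lowest signal in both channels. Over the 36 genes called higher whose mean Cy5 signal exceeded 100000, dam 14's Cy5 signal was at a median of 0.903 of the mean of the dams and its Cy3 signal at 0.609. Its log2 ratio at these genes was a median of 0.42 above the mean. At the 1811 called genes with a Cy5 signal of 1000 to 100000, dam 14 stood at 0.934 in Cy5 and 0.912 in Cy3, and its ratio at 0.12 above the mean. Of 2263 genes called higher and above background in both channels on all 5 arrays, dam 14 had the highest ratio for 1056 (46.7%). It had the highest Cy5 signal for 217 of these and the lowest Cy3 signal for 512. The reference RNA was the same in every hybridisation, and what lowers Cy3 on the array of dam 14 was not tested.

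**Figure D2:**
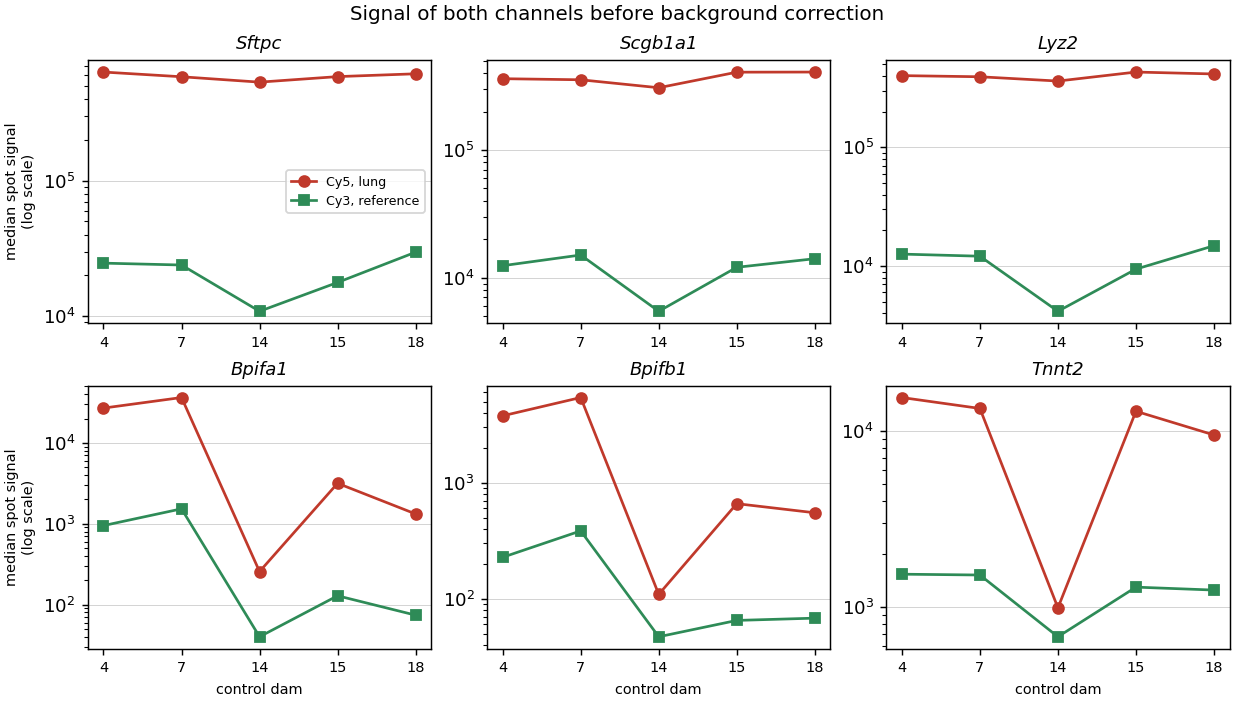
Median spot signal in Cy5 (lung, red circles) and Cy3 (reference, green squares) before background correction, on a log scale, for 6 genes in the 5 control dams. For Sftpc, Scgb1a1 and Lyz2 the red line is nearly level while the green line dips in dam 14, and for Bpifa1, Bpifb1 and Tnnt2 the red line itself falls in dam 14 and the green line falls with it.

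The 15 named genes with the largest ratios measured in both channels included genes known from alveolar and airway epithelium, blood vessels, fibroblasts, macrophages and granulocytes. Their cells of origin were not measured here. Mal2, a membrane protein of transcytosis in polarised epithelium, read 6.52, 6.26, 7.25, 6.83 and 6.72 in dams 4, 7, 14, 15 and 18. Its mean of 6.71 ± 0.37 was the highest among genes with a symbol (adjusted p = 4.89e-08). Scgb3a2, another secretoglobin of club cells, stood at 6.59 ± 0.27. Calcrl, the receptor chain for adrenomedullin and calcitonin gene-related peptide on vessels, stood at 6.59 ± 0.21 on 1 probe and at 2.24 on its other probe. Sparcl1, a secreted glycoprotein of the matrix, stood at 6.41 ± 0.56. S100a9, a subunit of the neutrophil protein calprotectin, stood at 5.97 ± 0.53. Chil3, a chitinase-like protein of alveolar macrophages, averaged 5.78 ± 0.55, and Rnase2a, a ribonuclease of the eosinophil-associated family, 5.48 ± 0.49. Vessel genes filled 5 of the 15 places: Calcrl, Lyve1 (5.68 ± 0.35), Ptprb (5.65 ± 0.50), Cdh5 (5.59 ± 0.38) and Mmrn2 (5.49 ± 0.48). Of these, Ptprb had 4 probes whose means began at 1.1, and the other probes of Lyve1 and Cdh5 gave 2.97 and 3.05. The fibroblast integrin gene Itga8, at 5.58 ± 0.31, had probes beginning at 1.28, while the 2 probes of Sparcl1 gave 6.41 and 6.57. The probe used for each gene was the one with the highest mean signal. The ratio of a gene with unlike probes depends on that choice. Of genes named below, the probe nearest the reference gave 2.36 for Plet1, 2.20 for Limch1 and 2.61 for Gucy1a1. It gave -3.18 for Il1rl1, -2.67 for Hmga2 and -2.00 for Ncapg, while the 3 probes of Ccnb1 ran from -3.67 to -3.34. The dams ranked alike across the 15 highest genes: dam 14 was the highest in 14 of 15 and dam 7 the lowest in 14. The same dams had the lowest Cy3 signal in 13 (dam 14) and the highest Cy3 signal in 14 (dam 7). The single largest ratio of all, 7.25, belonged to a transcript with no gene symbol here.

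**Figure D3:**
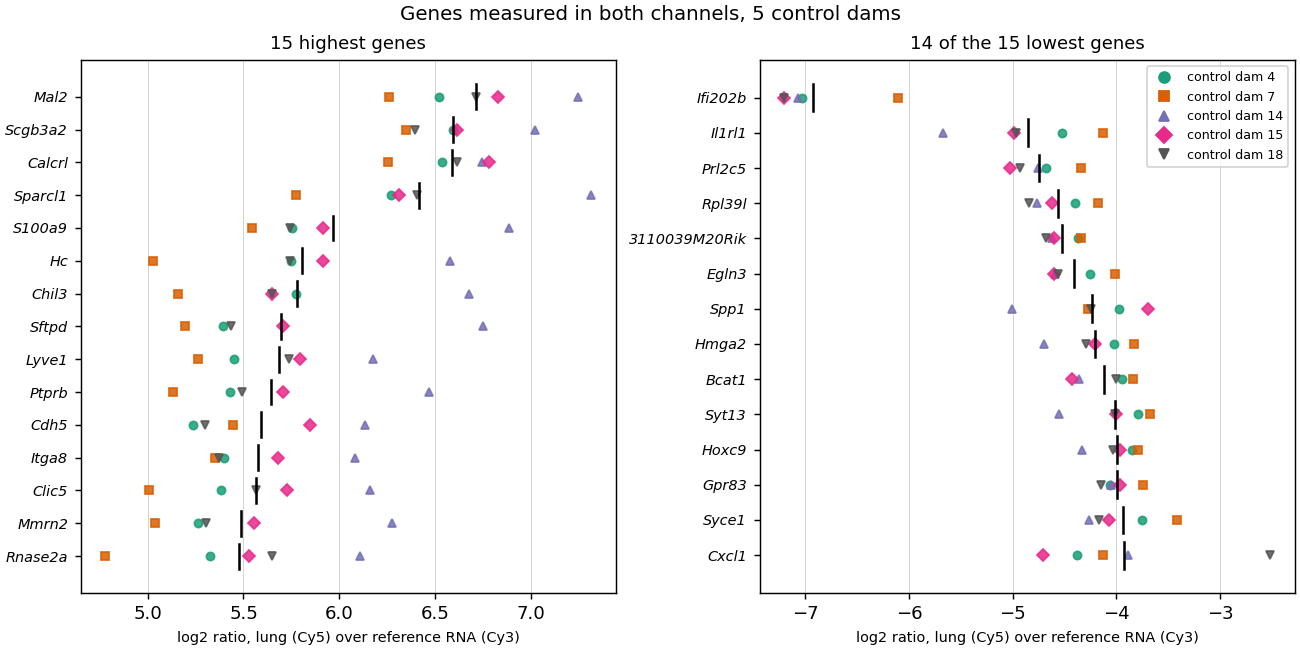
Log2 ratio of lung over reference (horizontal axis) for the 15 highest named genes measured in both channels and 14 of the 15 lowest, 1 point per control dam. The highest run from Mal2 at 6.71 to Rnase2a at 5.48 and the lowest from Ifi202b at -6.93 to Cxcl1 at -3.93, and in the left panel dam 14 lies to the right in nearly every row.

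Airway secretory genes were high as a group, with 15 of 17 measured higher, none lower, and a median of 3.7. Scgb3a2 read 6.59, 6.35, 7.02, 6.62 and 6.39 in dams 4, 7, 14, 15 and 18. The retinal-oxidising enzyme gene Aldh1a1 stood at 4.92 ± 0.23, and Cyp2f2, a cytochrome P450 typical of club cells, at 4.30 ± 0.60. The members that missed the test were those that varied between dams: Bpifb1 at 1.85 ± 1.13 and Reg3g, an antimicrobial lectin, at 2.03 ± 1.32. Bpifa1, a secreted protein of the upper airways, passed at 2.99 ± 1.05.

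Of 18 measured cilium genes (21 listed), 15 were higher in lung and none lower, with a median of 2.41. The dynein light chain gene Dynlrb2 read 3.97, 3.81, 4.64, 4.22 and 3.71 in dams 4, 7, 14, 15 and 18 and averaged 4.07 ± 0.37. Fam183b stood at 3.96 ± 0.11, the outer-arm dynein heavy chain gene Dnah5 at 3.87 ± 0.42 and the microtubule protein gene Tppp3 at 3.82 ± 0.24. Foxj1, the transcription factor that drives motile cilium formation, averaged 2.63 ± 0.095. Spag6 was the 1 member below 0, at -0.81 ± 0.19, and was not called. Because RFX factors act beside Foxj1 at cilium genes, promoters were searched on both strands for the letters of an RFX half-site, which are GTTGCCA, but also GTTGCTA and lastly GTTACCA. These letters were in 6 of the 12 called cilium genes that had a promoter window (50.0%) and in 10.0% of 27025 windows in all. Each window ran from 250 bases before to 50 bases after a gene's start in RefSeq (GRCm38.p6). The examples below are written 5′ to 3′ on the gene's strand with the match in capitals, TAGCAAC being the reverse complement of GTTGCTA. A match is a description of letters and not a measured binding site. They lie at chr8:116504950-116504996, plus strand for Dynlrb2, chr15:28203638-28203684, plus strand for Dnah5 and chr11:72361883-72361917, minus strand for Tekt1, a filament protein gene of cilia at 3.06 ± 0.18.
Dynlrb2: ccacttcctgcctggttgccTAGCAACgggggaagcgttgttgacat
Dnah5: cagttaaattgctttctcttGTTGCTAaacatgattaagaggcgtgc
Tekt1: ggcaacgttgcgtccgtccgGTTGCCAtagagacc

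Blood vessel endothelium gave the most uniform excess among the cell type lists: 34 of 35 genes were higher, with a median of 3.64. Cdh5, the cadherin of endothelial junctions, read 5.24, 5.45, 6.13, 5.85 and 5.30 in dams 4, 7, 14, 15 and 18. Emcn, an endothelial sialomucin, averaged 5.35 ± 0.19, and Tmem100 5.22 ± 0.44. Vwf, the clotting protein stored in endothelial cells, averaged 4.49 ± 0.37, and Kdr, a receptor for vascular endothelial growth factor, 4.35 ± 0.54. Cyyr1, at 0.75 ± 0.098, was the member not called. Fibroblast and pericyte genes followed, with 25 of 31 higher, none lower and a median of 2.87. Gucy1a1, a subunit of the nitric oxide receptor, stood at 5.27 ± 0.65 and the cytoskeletal gene Limch1 at 4.94 ± 0.14. Tcf21, a transcription factor of lung mesenchyme, averaged 3.98 ± 0.34, while the platelet-derived growth factor receptor Pdgfra, at 0.65 ± 0.15, was not called.

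Smooth muscle and matrix genes were divided. Of 14 smooth muscle genes, 5 were higher and none lower. Myosin heavy chain Myh11 stood at 3.35 ± 0.25 and calponin Cnn1 at 2.98 ± 0.22, whereas smooth muscle actin Acta2, at -0.098 ± 0.23, and Tagln, at 0.33 ± 0.24, were not called. The median of the list was 1.03, 1.11, 0.546, 1.09 and 0.994 in dams 4, 7, 14, 15 and 18, with dam 14 the lowest. Among 29 collagen and elastic fibre genes, 9 were higher and 6 lower, with a median of 0.419. The microfibril gene Mfap4 stood at 4.54 ± 0.45 and elastin, Eln, at 1.95 ± 0.22. The basement membrane collagens Col4a3 (3.32 ± 0.39) and Col4a1 (1.83 ± 0.18) were higher as well. In the other direction stood Lox, which crosslinks collagen, at -3.31 ± 0.11, Col8a1 at -2.79 ± 0.27 and fibronectin, Fn1, at -1.79 ± 0.12. Periostin, Postn, was at 3.31 ± 0.23 on 1 probe and at 0.20 on its other probe. The main fibrillar collagens Col1a1 (-1.31 ± 0.39), Col1a2 (-0.92 ± 0.31) and Col3a1 (-0.48 ± 0.67) lay below 0 and were not called.

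Resident macrophage genes were high while lymphocyte genes were mixed. Of 19 measured alveolar macrophage genes, 17 were higher and 1 lower, with a median of 2.96. The surface protein gene Plet1 stood at 5.09 ± 0.31, the scavenger receptor Marco at 4.62 ± 0.43 and the ribonuclease Ear1, one of a family of near-identical copies, at 4.36 ± 0.40. Trem2, a lipid-sensing receptor of macrophages, was the lower member at -1.42 ± 0.19 and was not called under median centring. Among 20 general macrophage and monocyte genes, 13 were higher and none lower. Neutrophil genes were higher for 9 of 16 and lower for none, and S100a9 read 5.75, 5.55, 6.88, 5.92 and 5.74 in dams 4, 7, 14, 15 and 18. Dam 14 stood above the other dams for S100a9. T and natural killer cell genes were higher for 12 of 22 and lower for 1. The cytotoxic lineage genes Klrd1 (3.81 ± 0.27) and Nkg7 (2.91 ± 0.30) were high, Cd8b1 stood at 3.82 ± 0.26 on 1 probe and at -0.91 on its other probe, while Lat, an adaptor of T cell receptor signalling, stood at -1.74 ± 0.041. The T cell receptor chain Cd3e, at -0.34 ± 0.064, was not called.

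B and plasma cell genes gave 5 higher and 3 lower of 17. Ighm, the heavy chain of immunoglobulin M, averaged 4.39 ± 0.47 and Fcmr, its receptor, 3.13 ± 0.41. The plasma cell genes Mzb1 (-2.22 ± 0.17), Pou2af1 (-1.96 ± 0.18) and Jchain (-1.86 ± 0.77) were lower than in the reference. The list gave 2 lower under median centring, and 2 when dam 7, 14, 15 or 18 was left out. Of 19 antigen presentation genes, 13 were higher and none lower, with a median of 1.69. The class II genes H2-Aa (3.93 ± 0.41) and H2-Eb1 (3.52 ± 0.39) led, and their regulator Ciita stood at 2.64 ± 0.18. Related H2 genes can share RNA on such probes. Red cell genes were higher for 5 of 6 measured of 12 listed, with the globin gene Hbb-bt at 3.87 ± 0.33 and Alas2, an enzyme of haem synthesis, at 3.28 ± 0.33. Globin copies are near identical, and blood held in the lung was not measured separately.

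Enzymes that oxidise and conjugate foreign chemicals were strongly represented, with 20 of 26 higher, 2 lower and a median of 2.97. Cyp2a5 read 5.30, 5.33, 4.5, 5.11 and 4.51 in dams 4, 7, 14, 15 and 18 and averaged 4.95 ± 0.42. Cyp4b1 stood at 4.56 ± 0.34, Cyp2b10 at 4.13 ± 0.38 and the carboxylesterase Ces1d at 4.78 ± 0.47. Cyp1a1, the classic target of the aryl hydrocarbon receptor, averaged 1.39 ± 0.35 in these vehicle-treated dams. The lower members were Nqo1, a quinone reductase, at -2.03 ± 0.13 and Cyp1b1 at -1.83 ± 0.30. Complement and coagulation genes were higher for 13 of 20 and lower for 1. Thrombomodulin, Thbd, an anticoagulant receptor of endothelium, stood at 4.61 ± 0.36 and Cfd, complement factor D, at 4.10 ± 0.83. The complement inhibitor gene Serping1 averaged 3.65 ± 0.40 and C3 2.22 ± 0.30, and Procr, the protein C receptor, was the lower one at -1.22 ± 0.13 but was not called without dam 15 or under median centring.

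Transcription factors of lung development were higher for 18 of 29 and lower for 1. Foxa2, which acts in airway and alveolar epithelium, read 5.30, 5.09, 5.20, 5.15 and 5.39 in dams 4, 7, 14, 15 and 18 and averaged 5.23 ± 0.12. Elf5 stood at 4.53 ± 0.13, and Nkx2-1, which specifies lung and thyroid, at 3.00 ± 0.20. Sox9, a marker of growing airway tips in the embryo and of cartilage, was the lower one at -3.52 ± 0.33. Foxa1 and Gata6, which also act in lung epithelium, were not called: Foxa1 stood at 1.16 ± 0.14, Gata6 at 1.02 ± 0.17. The Hox genes, which set position along the body axis, were described after their values had been seen. Called higher were Hoxa4 (1.37 ± 0.12), Hoxa5 (2.10 ± 0.23), Hoxb2 (1.17 ± 0.11) and Hoxb5 (1.83 ± 0.11), each with a number of 5 or less. The 10, 8, 8 and 4 measured genes of the a, b, c and d clusters gave 4 calls higher and 11 lower in all. Of all genes tested, 13.1% were higher and 7.54% lower, so the Hox genes were called higher about as often as other genes. Of the 11 lower, 9 carried a number of 7 or more, among them Hoxc9 (-3.99 ± 0.21). Cy5 was well above background on 4 of 5 arrays for Hoxa11 (-2.94 ± 0.15) and on 3 of 5 for Hoxb9 and Hoxc10. It was so on 1 of 5 for Hoxa10 (-2.92 ± 0.20) and Hoxd8, where the ratio is set by a lung signal near background. The other two were Hoxc6 (-3.1 ± 0.099) and Hoxd4 (-1.59 ± 0.19).

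The lowest of all genes measured in both channels was Ifi202b, an interferon-inducible gene of the p200 family, which read -7.03, -6.11, -7.07, -7.20 and -7.21 in dams 4, 7, 14, 15 and 18. Its mean was -6.93 ± 0.46 (adjusted p = 9.13e-08), and dam 7 was nearest to the reference. Il1rl1, the receptor for interleukin 33, stood at -4.86 ± 0.58. Prl2c5, a prolactin family gene of placenta with near-identical copies, stood at -4.75 ± 0.26. Rpl39l, a copy of a ribosomal protein gene, stood at -4.56 ± 0.27, with its other probe at -1.44. The oxygen sensor gene Egln3 averaged -4.41 ± 0.26 and Spp1, which encodes osteopontin, -4.24 ± 0.49. The chromatin protein Hmga2, abundant in embryos and tumours, averaged -4.21 ± 0.32, and the amino acid transaminase Bcat1 -4.12 ± 0.26. Cxcl1, a chemokine that attracts neutrophils, varied most among these 15: it read -4.38, -4.13, -3.89, -4.71 and -2.51 in dams 4, 7, 14, 15 and 18, an average of -3.93 ± 0.85. Dam 18 had clearly less of a deficit in Cxcl1 than the other dams. Others of the 15 lay between -4.52 (3110039M20Rik) and -3.93 (Syce1), and the other probes of Bcat1 and Syt13 gave -1.19 and -0.74.

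Cell division genes were uniformly low. Each of 40 mitosis genes was called lower, against 7.54% of all genes, from Plk1 at -1.61 ± 0.15 to Ncapg, a subunit of the condensin that compacts chromosomes, at -3.83 ± 0.25. The list's median was -2.77. Under 19 alternative settings with the same 2-fold test, 38 to 40 of them were called lower. Ccnb1, the cyclin that starts mitosis with Cdk1, read -3.42, -3.48, -3.44, -4.29 and -3.70 in dams 4, 7, 14, 15 and 18 and averaged -3.67 ± 0.37. Top2a, which untangles DNA, stood at -3.15 ± 0.19, and the proliferation marker Mki67 at -2.93 ± 0.33. The dam medians of the list were -2.74, -2.62, -2.49, -3.21 and -2.75, dam 15 lying lowest. Of 40 DNA replication genes, 39 were lower, with a median of -2.14. They were led by Uhrf1, which maintains DNA methylation, at -3.41 ± 0.30, and by the origin licensing factor Cdt1 at -3.12 ± 0.18. E2f1, the remaining one, stood at -0.97 ± 0.15. Histone and chromatin protein genes were lower for 11 of 19, led by Hmga2 and the linker histone gene H1f5 at -3.54 ± 0.30, and none was higher.

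The promoters of both division lists were searched on either strand for the letters of 3 known elements, none of which contains another. TTTGAA, the core of the cell cycle genes homology region (CHR) bound by the MuvB complexes, was in 24 of the 34 called mitosis genes with a window (70.6%) and in 18.1% of all 27025 windows, 1 per gene. CCAAT, the box bound by NF-Y, was in 27 of the 34 (79.4%) and in 37.9% of all. Among called replication genes, TTTGAA was in 4 of 31 windows (12.9%). The letters of an E2F site, taken as TTTGGCGC, as well as TTTCCCGC, further TTTCGCGC and lastly TTTGCCGC, were in 12 of these 31 (38.7%) and in 2.32% of all windows. Of the 34 mitosis genes, TTTGAA lay wholly before the start in 9 and CCAAT in 27. The 3 mitosis promoters shown here were picked among those with both boxes before the start. They have CCAAT (as ATTGG on the gene's strand) upstream of TTTGAA or its reverse complement TTCAAA. They are Top2a (chr11:99024190-99024267, minus strand), Cdk1 (chr10:69352913-69352980, minus strand; -3.11 ± 0.24) and Ube2c (chr2:164769852-164769925, plus strand; -2.97 ± 0.21), the last 2 being the mitotic kinase and an enzyme that marks cyclins for destruction. Capitals mark 1 match of each box, and the build is GRCm38.p6 as above.
Top2a: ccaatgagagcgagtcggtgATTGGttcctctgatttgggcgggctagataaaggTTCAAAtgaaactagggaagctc
Cdk1: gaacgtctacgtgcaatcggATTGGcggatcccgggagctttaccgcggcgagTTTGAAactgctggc
Ube2c: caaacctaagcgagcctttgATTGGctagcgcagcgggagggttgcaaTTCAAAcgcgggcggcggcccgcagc
For replication, the capitals mark an E2F match in Hells, a chromatin remodeller (chr19:38930908-38930955, plus strand; -3.02 ± 0.27), in Pola1, the catalytic subunit of DNA polymerase alpha (chrX:93632266-93632313, minus strand; -2.23 ± 0.19), and in Mcm7, a subunit of the replicative helicase (chr5:138172021-138172068, minus strand; -2.13 ± 0.17).
Hells: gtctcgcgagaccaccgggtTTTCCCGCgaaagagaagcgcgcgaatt
Pola1: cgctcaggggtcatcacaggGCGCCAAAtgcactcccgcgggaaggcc
Mcm7: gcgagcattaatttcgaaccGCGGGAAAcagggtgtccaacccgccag

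Many genes of glycolysis and ribosome assembly were lower as well. Of 17 measured glycolysis genes, 14 were lower and none higher, with a median of -1.77; 9 were lower when arrays were centred on their median. Pgk1 averaged -2.94 ± 0.24, Eno1 -2.72 ± 0.20 and Pgam1 -2.59 ± 0.13, all enzymes of the lower part of the pathway, and the glucose transporter Slc2a1 averaged -2.54 ± 0.26. Of 30 ribosome assembly genes, 18 were lower and none higher, and 5 were lower under median centring. Npm1, a chaperone of the nucleolus, stood at -2.00 ± 0.10, and Nop58, which guides RNA methylation, at -1.98 ± 0.09. Of the ribosomal protein genes themselves 2 of 29 were lower, Rps15 at -1.36 ± 0.09 and Rpl37 at -1.18 ± 0.096, with a median of -0.414. That share is near the 7.54% of all genes, and none was lower under median centring. None of 27 respiratory chain genes was called in either direction (1 was higher under median centring), and they ranged from -1.0 (Cycs) to 0.73 (Sdha). Cholesterol synthesis genes were lower for 2 of 20 (10%, against 7.54% of all genes), among them Cyp51 at -1.29 ± 0.22. Without dam 14, 15 or 18, 1 was called. Their median of -0.349 turned to 0.137 under median centring.

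**Figure D4:**
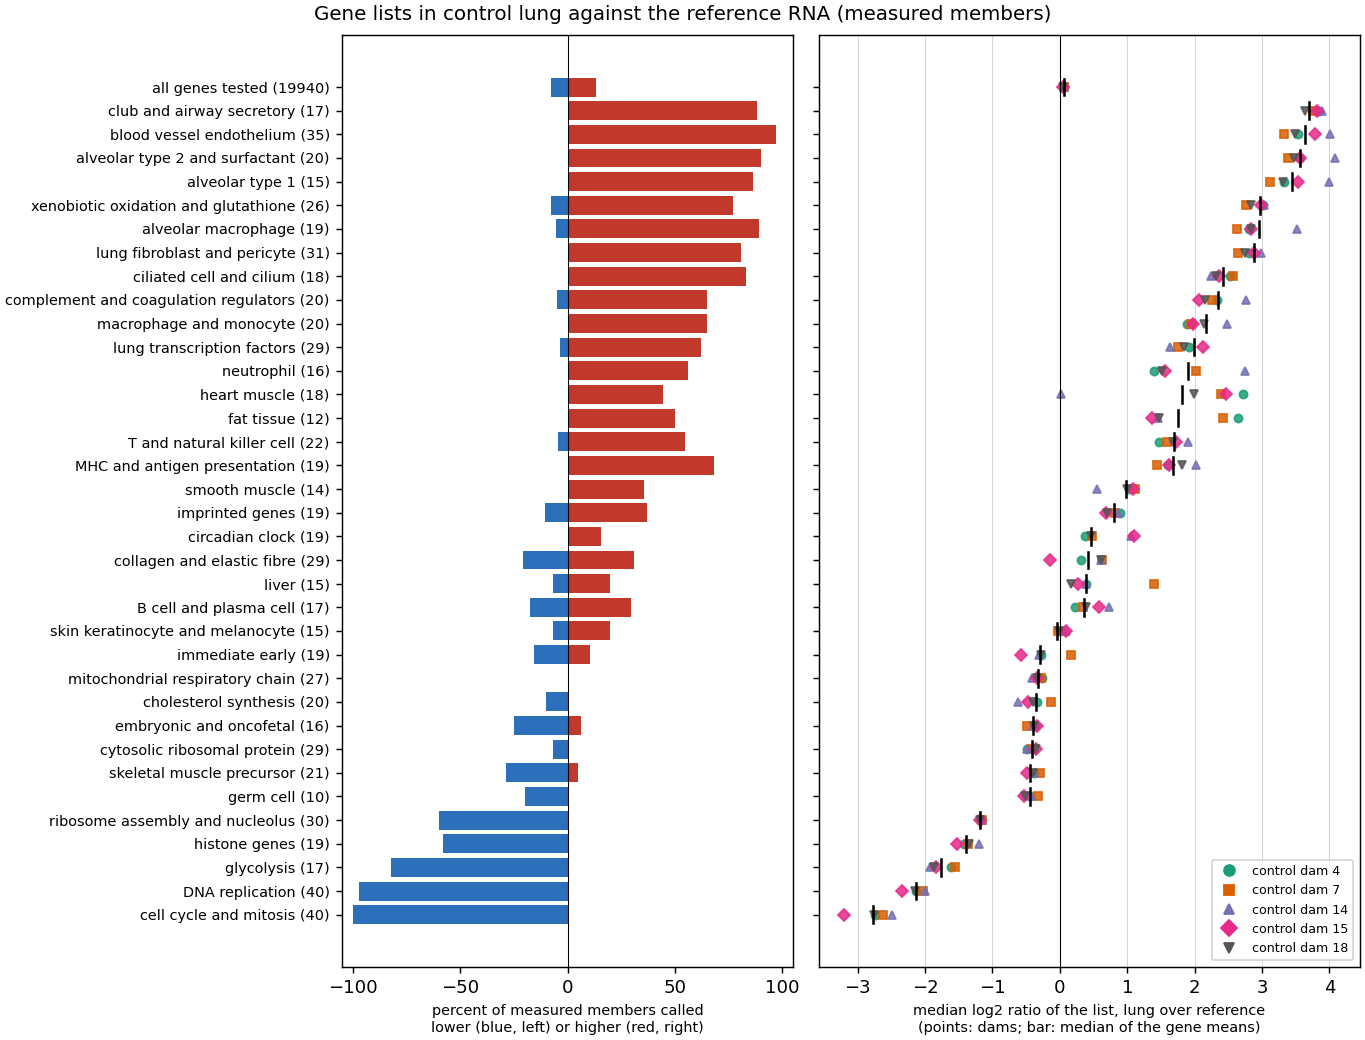
For each gene list (number of measured members in brackets), the percentage of members called lower (blue, to the left) or higher (red, to the right) is shown beside the list's median log2 ratio in each of the 5 control dams, with a bar at the median of the gene means. Endothelium and epithelium lie to the right, mitosis, replication and glycolysis to the left, and the dams spread widest in heart muscle.

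Genes tied to sex, early development or other tissues gave calls in both directions. Of the Y chromosome genes, 5 of 10 were measured and 3 were lower: Eif2s3y at -2.55 ± 0.10, Ddx3y at -2.53 ± 0.26 and Kdm5d at -1.30 ± 0.17 (2 under median centring). Their lung signal was well above background on 0, 2 and 1 of the 5 arrays, so these ratios are set by a signal near background. Xist, the RNA that silences an X chromosome in female cells, was higher at 1.60 ± 0.096, with the lowest of its 4 probes at 0.35. Eif2s3y was well above background in Cy3 on all 5 control arrays, and the dams were female. Imprinted genes gave 7 higher (11 under median centring) and 2 lower of 19. The growth inhibitor Cdkn1c stood at 3.04 ± 0.19, and Dlk1 and H19, both abundant before birth, at -2.86 ± 0.32 and -1.99 ± 0.39. Of 24 embryonic and oncofetal genes 16 were measured, with 4 lower and Sox2, also a factor of airway epithelium, higher at 2.12 ± 0.40. The lower ones were Hmga2 and the RNA-binding proteins Igf2bp3 (-3.04 ± 0.17), Igf2bp2 (-2.14 ± 0.17) and Igf2bp1 (-1.92 ± 0.11). Skeletal muscle precursor genes were lower for 6 of 21 (3 under median centring) and higher for 1 (3 without dam 14), the acetylcholine receptor chain Chrna1 standing at -2.75 ± 0.21 (other probe -0.43) and actin Acta1 at -2.18 ± 0.26. Germ cell genes were measured for 10 of 21, and Rhox5 (-3.59 ± 0.41) and Tex19.1 (-3.55 ± 0.28) were lower. Of 15 liver genes 3 were higher (5 under median centring), led by transferrin, Trf, at 4.13 ± 0.29, and alpha-fetoprotein, Afp, was lower at -1.88 ± 0.12. The skin list of 15 gave 3 higher and 1 lower, the keratin Krt14 at -1.40 ± 0.21, against 13.1% and 7.54% of all genes, and none was lower under median centring.

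Some genes were detected on 1 side alone, so that the array gave no more than a lower limit to the difference. In 49 of the genes called higher, Cy3 was not well above background on any control array, and in 20 of those called lower Cy5 was not. The limit compares the brighter channel's mean with the dimmest signal that counted as above background, or with the probe's own where that was higher, after the channels had been scaled between arrays. By this measure Dnah5 was at least 14.6-fold higher in lung on the probe used, while the lowest of its 3 probes gave a log2 ratio of 0.29. Adgrl4, an adhesion receptor of endothelium, was at least 10.3-fold higher and the gap junction gene Gjb6 at least 9.35-fold. Hhip, which restrains hedgehog signalling, was at least 4.79-fold higher, Sox2 at least 4.34-fold, and Grp, a peptide of airway neuroendocrine cells, at least 4.21-fold. The natural killer receptor genes Klrc1 and Klrb1a, members of families with close copies, were at least 5.74-fold and 4.02-fold higher. On the other side, Eif2s3y was at least 4.98-fold lower in lung, the liver enzyme Hao1 at least 4.52-fold and the carboxypeptidase Cpa6 at least 4.39-fold. The eye and brain factor Pax6 was at least 4.25-fold lower, Ssxb2, one of a family of near-identical copies, at least 4.25-fold, and the growth factor Ereg at least 2.64-fold. On the higher side the dim probe's own signal was above that floor on every array, so these limits equal the measured ratio, and they hold for the probe used. Other probes of these genes gave smaller log2 ratios: 1.83 for Gjb6, 1.04 for Hhip, 0.75 for Klrc1, -1.15 for Pax6 and -0.54 for Ereg. Among genes named above, the dimmer channel was well above background on 4 of 5 arrays for Lyve1, Klrd1, Bpifa1 and 3110039M20Rik, and on 3 of 5 for Cyp1a1. These limits are open to dye bias, since no dye was swapped.

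Genes of heart muscle and fat and the airway genes Clca1, Bpifa1 and Bpifb1 were among those with the largest spread between control dams. The SD over dams exceeded 0.5 for 227 genes and 1 for 25. Clca1, a secreted protein of mucous cells, had the largest SD among genes with a symbol: its ratios were 3.70, 4.20, 0.12, 0.28 and 0.22 in dams 4, 7, 14, 15 and 18. Dams 4 and 7 were far above the other 3 dams. In those 3, Cy5 was 104 to 132 and Cy3 40 to 41 before background correction. Median background on the control arrays was 81 to 83 in Cy5 and 18 to 21 in Cy3, so these ratios are limited by background. The arrays of dams 4 and 7 were also the control arrays scanned on the first scan day, and the part of the scan was not tested. Bpifb1, another airway secretory protein, read 2.86, 2.82, 0.083, 1.85 and 1.61 in dams 4, 7, 14, 15 and 18, and Bpifa1 read 3.84, 3.75, 1.27, 3.34 and 2.75, both with dam 14 lowest. At Bpifb1 the signals of dam 14 were also dim, at 109 in Cy5 and 47 in Cy3. The Cy5 signal of Bpifa1 was 26909, 36351, 256, 3162 and 1321 and its Cy3 signal 948, 1528, 40, 128.5 and 74, so that the reference channel itself ranged 38.2-fold. In 9 of the 15 genes with the largest spread the Cy3 signal ranged at least 1.5-fold, and in 8 of 15 the same dam was highest in both channels. Over all 16172 genes above background in both channels the same dam was highest in both for 54.1%. What moves both channels together at these genes was not tested.

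Tnnt2, the troponin T of heart muscle, read 2.35, 2.27, -0.41, 2.36 and 1.92 in dams 4, 7, 14, 15 and 18, and its other probe averaged 0.33. Sln, which encodes sarcolipin of the atria, read 4.49, 4.24, 0.031, 4.66 and 4.37 in dams 4, 7, 14, 15 and 18. Dam 14 was below the reference for Tnnt2, while the other 4 dams were well above it for both genes. For Sln, the signals of dam 14 were dim (92 in Cy5 and 40 in Cy3 before background correction), so that ratio is limited by background. The heart muscle list, with 8 of 18 measured genes higher, had dam medians of 2.72, 2.4, 0.0169, 2.47 and 1.98 in dams 4, 7, 14, 15 and 18. In it 13 genes were higher when dam 14 was left out and 5 when any 1 of the other dams was. Myh7, a myosin heavy chain of heart, did not follow this: it read 3.50, 3.29, 3.98, 3.59 and 3.31. Over the whole series, the median of the heart list was below 1 in 1 control dam, 1 low-dose dam, 4 medium-dose dams and 1 high-dose dam of 5 each. Adipoq, the fat cell hormone adiponectin, read 3.33, 3.1, 0.28, 0.98 and 1.01 in dams 4, 7, 14, 15 and 18, and Car3, a carbonic anhydrase of fat and muscle, 3.91, 3.54, 0.15, 1.35 and 1.38. Dams 4 and 7, which shared the first scan day, were high for both. The fat list, with 6 of 12 measured genes higher, had dam medians of 2.64, 2.41, 1.46, 1.37 and 1.48. The amount of heart, vein or fat tissue in the lung pieces is not given by the labels, and its part in these values was not tested.

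**Figure D5:**
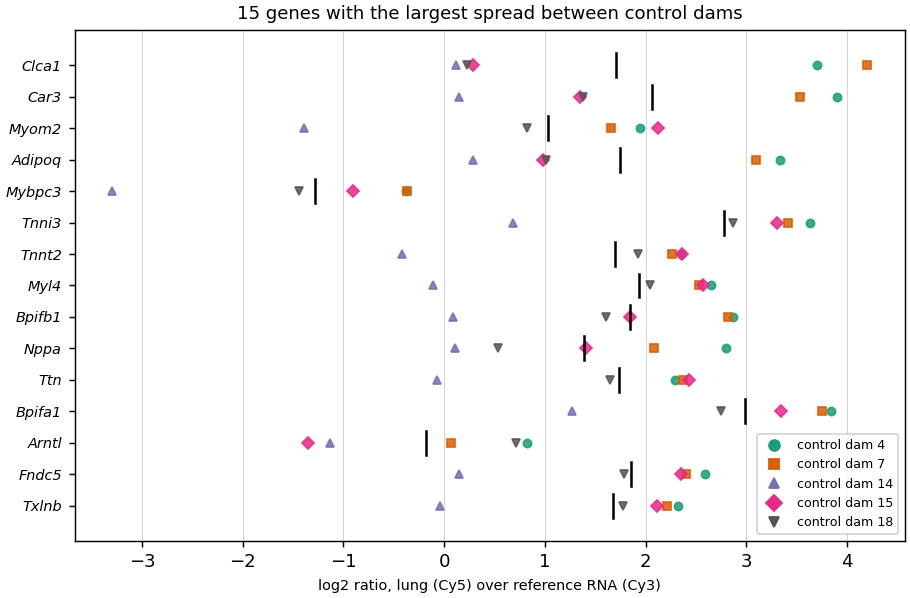
Log2 ratio of lung over reference (horizontal axis) for the 15 named genes with the largest SD over the control dams, 1 point per dam. Heart genes such as Tnnt2, Tnni3 and Myl4 put dam 14 at the left and the other dams at the right, Clca1 puts dams 4 and 7 at the right, and Arntl puts dams 14 and 15 at the left.

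In several clock genes dams 14 and 15 lay apart from the other dams. Arntl, which encodes the clock activator BMAL1 and was among the 15 genes of largest spread, read 0.82, 0.065, -1.14, -1.35 and 0.72 in dams 4, 7, 14, 15 and 18. Dams 14 and 15 were below the reference, and the other 3 lay above it. The other clock genes were looked at after this was seen. The repressor Per2 read 0.30, 0.86, 1.83, 2.12 and 0.45 in dams 4, 7, 14, 15 and 18, and Dbp, an output factor of the clock, read -0.13, 1.23, 1.66, 1.88 and 0.47. Hlf, a factor related to Dbp, read 1.06, 1.84, 2.61, 2.84 and 1.30 and Ciart, a repressor of the clock, -0.12, -0.13, 0.96, 1.1 and -0.11. In each of these 4 genes dams 14 and 15 lay above the other dams. Of the 19 clock genes, 12 had dams 14 and 15 above the other 3 without overlap and 4 had them below, against 15.9% and 17.3% of 19899 genes. The same dams were above the other 3 for 14 of 15 type 1 cell genes, 30 of 35 endothelial genes and 12 of 17 B and plasma cell genes, and below them for 15 of 27 respiratory chain genes, so this separation was not particular to the clock list. Dams 14 and 15 were also the 2 control arrays scanned on the second scan day. The labels used here give no time of day for the killing of the dams, and neither that nor the scan was tested. Against the reference, 3 of the 19 clock genes were called higher, or 1 when dam 7, 14 or 15 was left out. That share of 15.8% is near the 13.1% of all genes. The 3 included Hlf (1.93 ± 0.79) and Nr1d1 (1.39 ± 0.37, with the lowest of its 3 probes at 0.32).

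In some immediate early genes dam 7 was the highest of the dams. Fos, which cells switch on within minutes of a stimulus, read -1.88, 0.25, -1.66, -2.01 and -1.55 in dams 4, 7, 14, 15 and 18, and Egr1 read -2.80, -0.99, -3.23, -3.06 and -2.60. Nr4a1, an orphan receptor induced in the same way, read -0.68, 1.43, -0.023, -0.017 and 0.21. Dam 7 was the highest in all 3, of which Fos and Nr4a1 were picked after their values were seen. For the list's median, the gap between dam 7 and the next dam was 0.596 of the whole range, under the 0.71 used for flagging below. Klf6 varied little between the dams (SD 0.058). Against the reference, Egr1 (-2.54 ± 0.90), Fosb (-1.53 ± 0.35) and Ier2 (-1.43 ± 0.41, other probe -0.68) were called lower and the phosphatase Dusp1 (1.75 ± 0.38) and Klf6 (1.13 ± 0.058) higher, of 19. Without dam 7, 5 were lower and 1 was higher, and without dam 14 or 15, 1 was higher. The median of the list was -0.291 and turned to 0.217 under median centring, where 3 were higher and 1 lower.

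Whether the ratios of control lung hold in exposed lung was asked by comparing the 15 carbon black arrays with the 5 control arrays. Every array carried the same reference RNA, but its signal varied between arrays, as given for dam 14, and that variation need not cancel. No gene passed an adjusted p of 0.05 in limma's moderated test (0% of 19940 genes), and 2058 had an unadjusted p under 0.05. The smallest p belonged to Siglech, a receptor of plasmacytoid dendritic cells. Its ratio in control lung was 0.84, 0.74, 0.71, 0.58 and 0.73 in dams 4, 7, 14, 15 and 18, and it averaged 0.35 (0.059 to 0.47), 0.26 (0.15 to 0.39) and 0.41 (0.33 to 0.47) in the low, medium and high groups of 5 dams. All 5 control dams lay above all 15 exposed dams. Siglech was picked here for its small p, and the share of all genes separated in this way was not counted. Its probe was dim in the control dams, at 155 to 183 in Cy5 and 35 to 40 in Cy3 before background correction. Median background on these arrays was 81 to 83 in Cy5 and 18 to 21 in Cy3. The difference of exposed minus control was -0.38 (SE 0.0592, adjusted p = 0.0788). It passed, at an adjusted p of 0.00831 and a difference of -0.36, when low-dose dam 27 was left out, an alternative chosen after seeing the data. The next 4 genes, Ado, Olfr32, Tgoln1 and Cxadr, all had an adjusted p of 0.276. Cxadr, the receptor for coxsackievirus and adenovirus, differed by 0.49 and Tgoln1, a protein of the trans-Golgi network, by 0.27. The lung markers differed by 0.20 (Sftpc), 0.078 (Sftpb), 0.18 (Scgb1a1) and 0.25 (Ager), with adjusted p-values of 0.624 to 0.776. A p above the threshold does not show that exposed and control lungs were alike.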

How the data were processed

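Lung RNA of 20 dams was hybridised with 250 ng input against universal reference total RNA on two-colour Agilent mouse arrays of 41174 probes, 5 of them from the control group. Per the file headers, the authors ran Feature Extraction 9.5.1.1 on 18 arrays and 10.1.1.1 on 2. The deposited files give median spot and local background intensities, flags for signal above background, saturation and outliers, and a log10 ratio of Cy5 over Cy3. A deposited table of log2 values, lung over reference, correlated with the ratios computed here at 0.993 to 0.995 on the control arrays, with column medians of -0.0439 to -0.0315; how it was normalised and centred stays unknown here. Intensities were background-corrected (normexp, offset 50) and loess-normalised within arrays with limma 3.58.1 in R 4.3.3. Outlier spots were dropped, spots of a probe averaged, and the probe with the highest mean signal kept per gene. Control lung was tested against the reference by lmFit and treat (2-fold), and exposed against control lung by lmFit and eBayes over 20 arrays; p-values were adjusted by Benjamini-Hochberg. Probes were named through RefSeq tables: 22951 by accession, 6659 by symbol, 3109 by synonym, and 8455 kept the name in the file. Replicates are separate dams, 1 array each. Both tests were tried on simulated data.

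Named genes were the 15 highest and 15 lowest ratios measured in both channels, the 15 largest limits in each direction, the 4 markers, the 4 most different called members of each list, the 15 with the largest SD among genes above background in Cy5 on every control array, the 5 with the smallest p for exposure and the 5 most like Sftpc. Other genes were named after their values were seen, and some genes that the rule names are not reported here. The members and lists were chosen with earlier results of these data known. Alternatives changed background correction, normalisation, probe filter, probe choice, spread, threshold and arrays included. The number of arrays limits the precision. RNA integrity numbers of the dams were 7 to 9 per the labels.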

Additional observations from a re-analysis of the deposited data

Results flagged for a closer look

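In 14 of 201 named genes 1 control dam lay apart from the other 4, its gap to the nearest dam exceeding 0.71 of the whole range (Dixon's 95% value for 5 samples). Chance gives this in about 5% of groups, and 5.22% of all 19899 genes measured in 5 dams showed it. Among them were heart and muscle genes with dam 14 lowest. The gap was 0.91 of the range for Sln, 0.843 for Tnnt2, 0.842 for Myl7, 0.783 for Myl4, 0.77 for Txlnb and 0.741 for Tnni3. Tnnt2, Myl4, Txlnb and Tnni3 were named for their large SD over these same dams, so their flags are not independent of that choice. Dam 14 was highest for H2-Aa (0.747), H2-Ab1 (0.726) and S100a9 (0.723). Dam 7 stood apart for Ifi202b (0.842), Egr1 (0.72) and Chrna1 (0.717), dam 15 for Bub1 (0.831), and dam 18 for 3830403N18Rik (0.799).

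Of 38 list medians, 6 showed such a gap. Dam 14 was lowest for heart muscle (0.727) and smooth muscle (0.795) and highest for type 2 cells and surfactant (0.734) and for alveolar macrophages (0.76). Dam 7 was highest for liver genes (0.808), where the dam medians were 0.394, 1.39, 0.395, 0.27 and 0.158 in dams 4, 7, 14, 15 and 18. Dam 15 was highest for the 3 X inactivation transcripts (0.803). Lists share genes and arrays, so these 6 are not independent.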

How the results depend on the processing

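Genes higher and lower in lung numbered 2617 and 1504. With arrays centred on their median they were 4113 and 826, and all 826 were among the 1504. The scanner software's ratio gave 3041 lower. A test against a ratio of 1 gave 9155 and 7643, and one against an 8-fold ratio gave 330 and 42. Leaving out 1 control dam gave 2519 to 2602 higher and 1407 to 1490 lower. Every other setting stayed within 1.5 times of both counts, among them the deposited table (2367 and 2048) and division by the spike-in slope, chosen after seeing the data (3208 and 2027). No call of a named gene turned to the other direction under any setting tried, and 158 single values of 110 genes fell below the threshold. Of exposed against control lung, 0 genes passed, and 0 with each control dam left out, with slide as a block and without the slide that held medium-dose dams alone. Without background correction 44 passed (15 higher), with the deposited values 37 passed (16 higher), and without low-dose dam 27 it was 1; the cause was not tested. Calls in the circadian clock list numbered 7 under median centring (3 before). The groups share no replicate numbers, so pairing was by slide, the block given above. Dye bias cannot be measured without a dye swap, and ratios of dim probes are limited by background.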
